A study of Mus musculus with 34 samples.

Results

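The 50 genes described here act in the G2 phase and mitosis, the stretch of the cell cycle in which a cell with copied DNA divides. They were taken by symbol from a list of G2/M and mitosis genes, and all 50 were present among the 24223 rows of the knockout count table. RNA came from tracheal airway epithelium that was collected by brushing from mice lacking the epithelial receptor gene Gprc5a (genotype Gprc5a-/-), 1 mouse for each library. The exposed mice were injected intraperitoneally with the tobacco nitrosamine NNK at 50 mg/kg of body weight, 3 times a week for 8 weeks. Unexposed knockout mice formed the baseline group (n = 6). Exposed knockout mice were sampled when NNK ended (group t0, n = 6), or after a further 2 months (group t2, n = 5), 4 months (group t4, n = 6) or 6 months (group t6, n = 5). Libraries of 6 unexposed wild-type mice were deposited as separate files. Every library is labelled with an age of 6 to 8 weeks, although mice of the later groups were older when sampled. Unexposed mice of those later ages were not analysed here, so time after NNK and age cannot be told apart, and the strain is not given in the sources used here. All exposed libraries also share the loss of Gprc5a, since no exposed wild-type mouse was analysed here.

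Entry into mitosis depends on the kinase Cdk1 bound to A- and B-type cyclins, which the Cdc25 phosphatases switch on. The genes for this machinery are transcribed late in the cycle by the MuvB complex with B-Myb (Mybl2) and the forkhead factor Foxm1, and resting cells hold many of them silent through the related DREAM complex, which binds a promoter element called the cell cycle genes homology region (CHR). In mitosis the kinases Plk1, Aurka and Aurkb build the spindle, the spindle checkpoint holds back the ubiquitin ligase APC/C and its activator Cdc20 until chromosomes are attached, and separase (Espl1) then frees the sister chromatids. In the trachea, basal cells are the main dividing cells, whereas multiciliated cells have left the cycle yet use parts of the same machinery to build centrioles.

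The promoter element is shown first. The genes were taken by symbol, but how the list was drawn up is not given here. The shares below may therefore not be independent of the choice of genes. RefSeq promoter windows on GRCm38.p6, from 250 bases before to 50 bases after the start of transcription, were matched for 42 of the 50 genes; Foxm1, Ccna2, Cdc25c, Aurkb, Kif20a, Incenp, Tpx2 and Dlgap5 were not matched. The CHR was searched as TTTGAA or TTCGAA and the CCAAT box as CCAAT, on both strands. A gene was counted if any of its windows held the element; the 42 genes have 44 windows. A CHR was held by 32 of the 42 genes (76.2%), against 21.7% of all 27025 genes with a window. The spelling TTTGAA was held by 30 (71.4%, against 20.2%) and TTCGAA by 4 (9.52%, against 1.8%). A CCAAT box stood in 30 (71.4%, against 41.1%), and 27 held both elements (64.3%, against 8.61%). Within 40 bases before to 35 bases after the start, a stretch chosen after the first counts were seen, 29 of the 42 held a CHR (69%, against 5.01%). Set beside the changes described below, a CHR was held by 24 of the 29 matched genes that rose at t0, by 8 of the 11 without a call, among them Plk1, and by neither of the 2 that fell. Of those that rose, Birc5, Ccnb1, Cenpe, Mybl2 and Ncaph held none. A match describes letters in a window and does not show binding, and whether the element goes with the direction of change was not tested. The 250 bases before the start are printed 5′ to 3′ for 3 genes that were higher at t0 and for the 2 that were lower, with CHR and CCAAT matches on either strand in capitals. They are Cdc20 (chr4:118437344-118437593, minus strand), Ccnb2 (chr9:70421555-70421804, minus strand), Espl1 (chr15:102296043-102296292, plus strand), Nek2 (chr1:191821223-191821472, plus strand) and Melk (chr4:44300667-44300916, plus strand).
Cdc20: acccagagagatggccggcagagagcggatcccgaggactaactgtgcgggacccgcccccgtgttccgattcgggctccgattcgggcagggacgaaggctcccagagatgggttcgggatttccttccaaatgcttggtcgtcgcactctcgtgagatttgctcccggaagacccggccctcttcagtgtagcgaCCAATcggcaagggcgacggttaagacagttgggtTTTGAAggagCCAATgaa
Ccnb2: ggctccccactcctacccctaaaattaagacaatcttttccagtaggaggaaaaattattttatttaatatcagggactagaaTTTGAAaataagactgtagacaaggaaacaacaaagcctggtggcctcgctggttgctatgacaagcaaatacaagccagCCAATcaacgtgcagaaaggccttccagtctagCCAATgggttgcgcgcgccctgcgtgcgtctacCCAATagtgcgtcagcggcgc
Espl1: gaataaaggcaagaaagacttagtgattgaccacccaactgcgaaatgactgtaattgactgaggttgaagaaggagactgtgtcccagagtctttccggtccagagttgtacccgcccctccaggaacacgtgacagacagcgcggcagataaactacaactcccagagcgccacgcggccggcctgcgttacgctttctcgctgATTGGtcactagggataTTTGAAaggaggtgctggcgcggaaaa
Nek2: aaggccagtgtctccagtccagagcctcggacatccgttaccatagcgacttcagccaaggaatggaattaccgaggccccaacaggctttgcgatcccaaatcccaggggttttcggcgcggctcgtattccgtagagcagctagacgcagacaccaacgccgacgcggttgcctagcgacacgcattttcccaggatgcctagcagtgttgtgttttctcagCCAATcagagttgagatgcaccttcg
Melk: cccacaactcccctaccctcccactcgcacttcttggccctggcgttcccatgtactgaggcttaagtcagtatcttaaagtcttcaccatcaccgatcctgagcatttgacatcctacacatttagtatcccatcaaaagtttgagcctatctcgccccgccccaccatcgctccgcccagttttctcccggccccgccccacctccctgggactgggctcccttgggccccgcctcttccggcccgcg
In Cdc20, which encodes the APC/C activator, the CHR began 18 bases before the start, with CCAAT boxes 53 and 8 bases before it. For the B-type cyclin gene Ccnb2, a CHR began 167 bases before the start and another at base 5 after it, outside the stretch printed, with CCAAT boxes at 87, 54 and 21 bases before the start. In the separase gene Espl1 the CHR began 27 bases before the start, beside a CCAAT box on the opposite strand (ATTGG) at 44 bases. The window of Nek2, a centrosome kinase, held CCAAT boxes 26 bases before and, outside the stretch printed, 8 bases after the start, and no CHR, and that of the kinase Melk held neither element.

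Across the knockout libraries, total counts ranged from 15.6 M to 37.6 M. Gprc5a had 4 to 49 counts in 27 of the 28 libraries. The library labelled t2 339 had 238 counts (8.06 CPM by library total, against at most 2.88 in the others) and 14283 genes above 0, fewer than any other. Which part of the gene these reads cover was not analysed here. Markers of the labelled tissue were present in every library: the 8 club-cell genes summed to between 23310 and 117970 CPM, the 8 multiciliated genes to between 710.4 and 6393 CPM, and the 10 basal genes to between 1154 and 9775 CPM. Haemoglobin made up 22.8% of the library t0 357, 25.5% of t4 371 and 15.3% of t6 349. The ribosomal transcript Rn45s took 14.8% in t6 365. Values below are CPM, a gene's count per 1 M counts of its library after TMM, a scaling that assumes most genes to be equal between libraries. Fold changes are log2 values from edgeR's quasi-likelihood test, with p-values adjusted over 14847 genes and called under 0.05. Their standard errors were derived, as the absolute log2 fold change divided by the square root of the test's F statistic.

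At the end of NNK exposure most mitosis genes stood above baseline. Of the 50, 35 rose and 2 fell at t0 against baseline, against 23.3% of all genes tested that rose and 22.3% that fell (45.5% in either direction). Their median log2 fold change was 1.40, beside 0.02 over all genes tested. The rise was at least 2-fold for 32 of the 35 and at least 4-fold for 5, Ube2c, Espl1, Cdca8, Cenpa and Incenp. Every library of t0 lay above every baseline library for 17 of the 50, against 13.1% of all genes. The filter on low counts passed all 50, but Cdc25c and Ttk passed it only through the t0 libraries. Of the other 48, 34 rose and 2 fell. The 13 genes without a call at t0 were Plk1, Pttg1, Ect2, Kif11, Mad2l1, Kif20b, Ndc80, Dlgap5, Nusap1, Kif15, Cdca3, Cdc25c and Bub1. Because a brushing is a bulk sample, more dividing cells and more RNA of these genes per cell cannot be told apart.

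**Figure D1:**
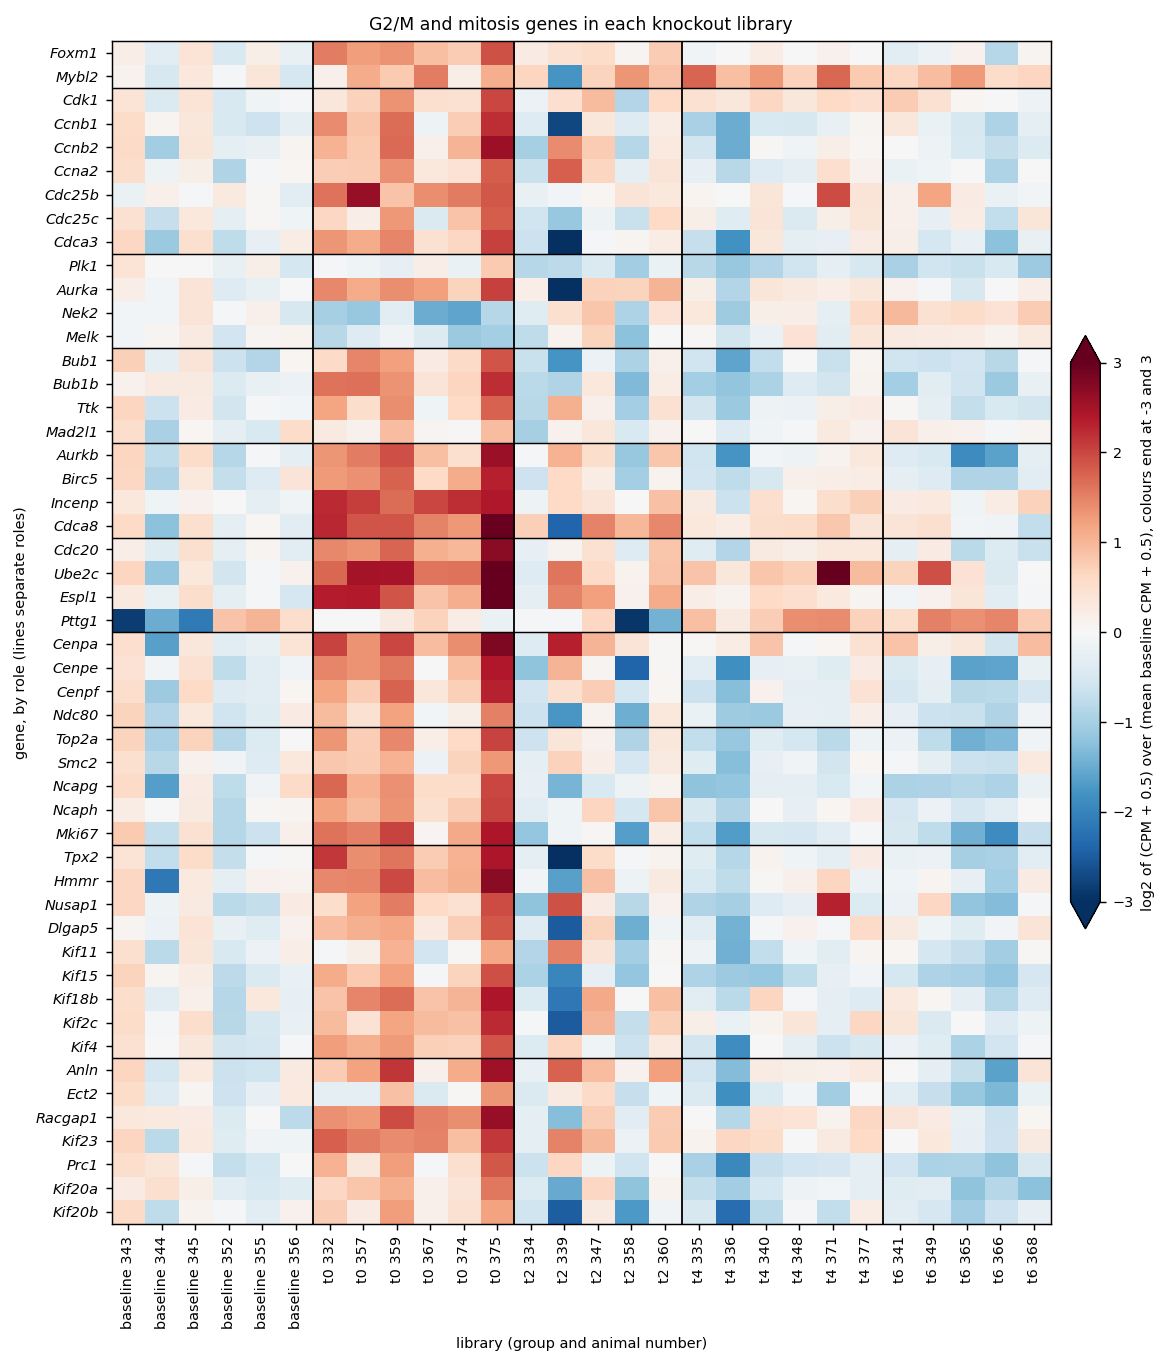
Each cell of the map gives a gene's CPM in 1 of the 28 knockout libraries as a log2 ratio to its mean in the baseline libraries, after adding 0.5 CPM to both; red is higher, blue is lower, and lines separate gene roles and groups of libraries. The t0 columns are red for most genes, deepest in t0 375, whereas Nek2 and Melk are mostly blue there.

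Libraries of a single group also differed over many of the genes at once. Between 39 and 47 of the 50 lay above their baseline mean in each t0 library, but so did 46 in baseline 343 and 46 in baseline 345, against 3 in baseline 352. Summed over the 50 genes, CPM ran from 285.7 to 436.1 at baseline (median 342.6; 355.7 ± 66.8, SD, n = 6) and from 462.6 to 1149 at t0 (median 660.0; 704.0 ± 248.5, n = 6), with no overlap. The t2 libraries gave 225.2, 257.7, 461.1, 463.5 and 531.0. At t4 the sum ran from 208.2 to 456.1 (median 380.0), and the t6 libraries gave 313.2, 351.8, 402.6, 416.3 and 428.6. All t4 and t6 libraries lay below the lowest t0 library, and 2 of the 5 t2 libraries lay inside the t0 range, 339 (463.5 CPM) at its lower edge and 347 (531.0 CPM) further in. Without Nek2 and Melk the mean was 246.8 ± 58.4 CPM at baseline and 644.4 ± 243 at t0, and the t2, t4 and t6 means were 269 ± 85.4, 257.5 ± 72.8 and 224.7 ± 37.

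The t0 values rested in part on a single library. Library t0 375 was the highest of its group in 44 of the 50 genes. Without it 23 rose and 1 fell (median log2 fold change 1.15), and the calls of Mybl2, Ccnb1, Ccna2, Aurka, Ttk, Kif20a, Kif2c, Kif18b, Cenpe, Ncapg, Smc2, Prc1 and Melk were lost. With t0 375 among them, leaving out any of 14 libraries ended the call of Ttk, any of 11 that of Kif2c and any of 7 that of Melk. The other 24 calls held when any single library was left out. Within t0 the lowest library was 367, lowest in 30 of the genes. Library t2 339 stood apart over the genes: it had 0 counts for 11 of them (Cdc25c, Aurka, Bub1, Kif20b, Kif2c, Kif15, Kif18b, Cdca8, Cdca3, Tpx2 and Dlgap5), yet was the highest of its group in 17 and the lowest in 18. Of the other knockout libraries, baseline 344 had 1 of the genes at 0 and the rest none. Without t2 339 in the fit 40 rose and 2 fell at t0, and with t0 357, t2 339, t4 371, t6 349 and t6 365 left out together 41 rose and 1 fell. The shares of all genes called in these fits are not given here. Whether the counts of these refits are particular to the mitosis genes therefore cannot be read from them.

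Markers of several cell types moved in the same comparison. Of 10 basal markers 8 rose at t0, all but Trp63 and Itga6, and their sum was 1154 to 2848 CPM at baseline and 5273 to 9775 CPM at t0. It was 1921 to 3927 CPM at t2, and in the t4 and t6 libraries it ran from 1494 to 5611 and from 1805 to 3566 CPM. Of 9 macrophage markers 8 rose and Lyz2 fell, and without Lyz2 their sum was 68.7 to 126.5 CPM at baseline and 361.1 to 1172 CPM at t0. In the t2, t4 and t6 libraries it ran from 112.8 to 192.7, from 94.6 to 256.1 and from 115.9 to 214.9 CPM. Of 9 T- and NK-cell markers tested 7 rose, from a sum of 2.74 to 19.1 CPM to one of 13.6 to 177.6, and at t2, t4 and t6 the sum lay between 5.46 and 25.6. Without t0 375, 1 of 8 T- and NK-cell markers tested rose. Which markers passed the filter on low counts only through the t0 libraries is not given here. The T and NK sum was highest in t0 375, where it was 177.6 CPM against at most 46.0 in the rest of t0, whereas t0 375 had the lowest basal sum of its group. Cd5 was at 0 in 2 baseline libraries, Cd4, Klrd1 and Marco in 1 each, and no basal marker was at 0 in any baseline or t0 library. Of the B and plasma markers tested 3 of 7 rose, of the neutrophil markers 2 of 5, of the endothelial markers 2 of 6 and of the skeletal-muscle markers 7 of 8, counts to be read against the 23.3% of all genes that rose. The B and plasma sum, most of it Xbp1, was 166.9 to 276.6 CPM at baseline and 162.1 to 276.1 at t0. The markers of fibroblasts and cartilage summed to 97.3 to 305.6 CPM at baseline and 87.0 to 236.2 at t0. Of 7 genes of deuterosomal cells, the precursors of multiciliated cells that multiply centrioles, Mcidas rose and Myb fell. The 8 multiciliated and the 8 club markers all fell, the multiciliated sum from 3161 to 4407 CPM at baseline to 710.4 to 2578 at t0. The part of these cell types in the rise of the mitosis genes was not tested.

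**Figure D2:**
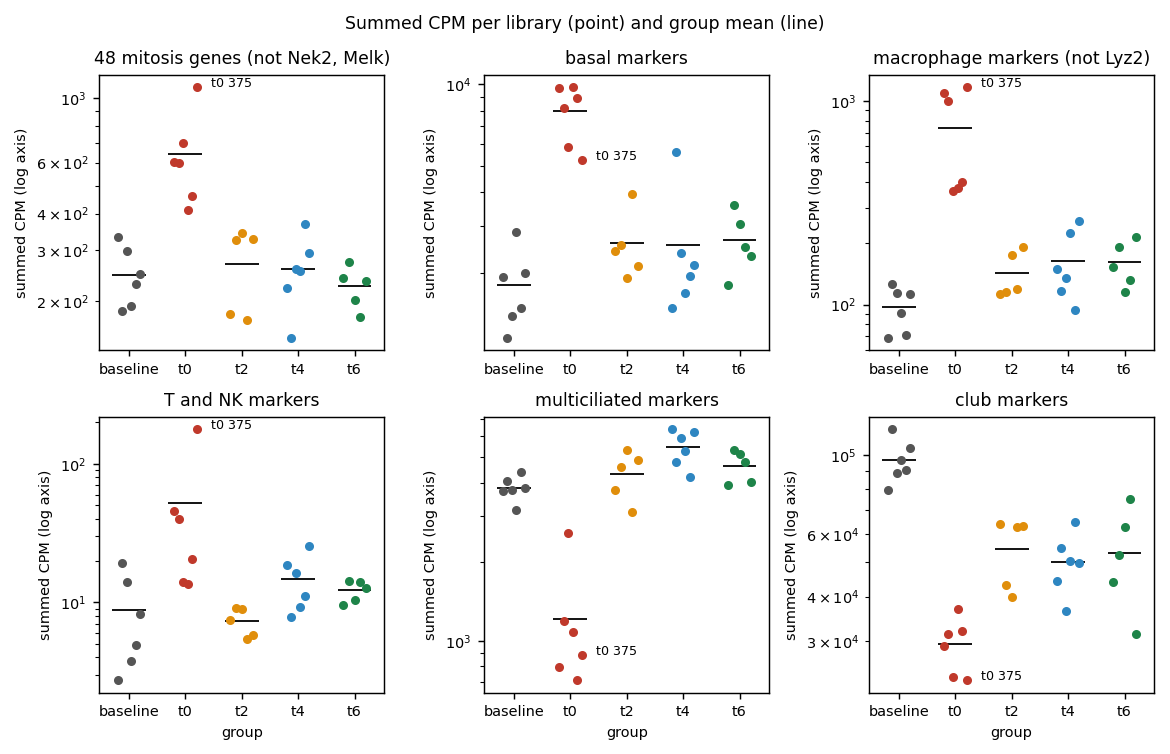
Summed CPM on log axes for 48 of the mitosis genes and for 5 sets of cell type markers (the macrophage set without Lyz2), with 1 point per knockout library, a line at the group mean and t0 375 named. The mitosis, basal, macrophage and T and NK sums were highest at t0 on average and the multiciliated and club sums lowest. Library t0 375 is highest for the mitosis genes and the T and NK markers and lowest for the basal markers within t0.

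Both transcription regulators rose at t0. Foxm1, the forkhead activator of this gene set, was at 4.07 to 7.79 CPM (median 5.7) at baseline and 10.1 to 22.8 CPM (median 15) at t0. The t2 libraries held 6.09, 6.92, 8.02, 8.67 and 10.1 CPM, t4 ran from 5.3 to 6.82 CPM (median 5.76), and the t6 libraries held 2.95, 4.52, 5.05, 6.17 and 6.31 CPM. Every t0 library lay above every baseline library, and all t2, t4 and t6 libraries lay below the t0 range, t2 360 only just. The rise was 2.66-fold (1.41 ± 0.22, adjusted p = 7.4e-06), and Foxm1 fell from t0 to t2 (−0.94 ± 0.23, adjusted p = 0.0021) and to t6 (−1.61 ± 0.23, adjusted p = 4.6e-06). Mybl2, the B-Myb subunit that recruits Foxm1, kept a different course. It was at 2.91 to 5.68 CPM (median 4.43) at baseline, 4.87 to 13.4 CPM (median 8.76) at t0 and 7.27 to 15.6 CPM (median 9.86) at t4. The t2 libraries held 0.906, 7.03, 7.19, 8.14 and 11.5 CPM, and the t6 libraries 6.51, 6.94, 7, 8.63 and 11.2 CPM. Groups overlapped at t0, whereas all t4 and all t6 libraries stood above baseline. Mybl2 rose at t0 (0.97 ± 0.36, adjusted p = 0.029; 5 libraries each end this call when left out) and at t4 (1.34 ± 0.36, adjusted p = 0.011). Its value at t6 against baseline was 0.90 ± 0.37, adjusted p = 0.13, and against t0 it was −0.07 ± 0.37, adjusted p = 0.91.

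Of the 7 genes of mitotic entry, 5 rose at t0, and the phosphatase gene Cdc25c (1.38 ± 0.64, adjusted p = 0.078) and Cdca3, which helps degrade the Cdk1 inhibitor Wee1 (1.37 ± 0.57, adjusted p = 0.051), had no call. Cdk1, the kinase at the centre of mitotic entry, was at 5.96 to 11.3 CPM (median 7.78) at baseline, 10.6 to 35.2 CPM (median 12.8) at t0 and 10.7 to 13.1 CPM (median 11.9) at t4. It held 4.31, 7.3, 12, 12.8 and 16.5 CPM in t2 and 7.43, 8.34, 8.68, 11.6 and 14.4 CPM in t6. The lowest t0 library lay inside the baseline range, 3 lay close above it, and 359 and 375 lay far above it. Cdk1 rose 2.1-fold at t0 (1.07 ± 0.29, adjusted p = 0.0037). Against t0 it had no call at t4 (−0.57 ± 0.29, adjusted p = 0.14) and fell at t6 (−0.80 ± 0.31, adjusted p = 0.039), where without t0 375 the adjusted p was 0.19. The cyclin gene Ccnb1 was at 1.81 to 4.67 CPM (median 2.84) at baseline and 2.7 to 15.9 CPM (median 7.39) at t0, and then 0.76 to 3.26 CPM (median 2.05) at t4. In t2 it was at 0.0323, 2.19, 2.2, 3.63 and 3.95 CPM, the lowest in 339, and in t6 at 1.37, 2.03, 2.41, 2.57 and 3.94 CPM. The lowest t0 library lay inside the baseline range, and the rise (1.45 ± 0.53, adjusted p = 0.027) had an adjusted p of 0.086 without t0 375. Its partner Ccnb2 was at 1.02 to 4.17 CPM (median 2.48) at baseline, 2.96 to 18 CPM (median 5.92) at t0 and 0.622 to 3.02 CPM (median 2.56) at t4. Values of Ccnb2 were 1.06, 1.22, 3.36, 4.81 and 7.89 CPM in t2 and 1.4, 1.78, 1.87, 2.33 and 2.68 CPM in t6. Again 1 t0 library lay inside the baseline range, the change was 1.58 ± 0.47, adjusted p = 0.0071, and all t6 libraries lay below t0. Ccna2, the A-type cyclin gene, rose 2.09-fold (1.06 ± 0.35, adjusted p = 0.015) and fell from t0 to t6 (−1.30 ± 0.37, adjusted p = 0.007). Cdc25b, the phosphatase thought to start Cdk1 activation at the centrosome, rose 3.47-fold (1.80 ± 0.32, adjusted p = 4.6e-05), from 13.3 ± 2.2 to 46.1 ± 20.5 CPM. The highest library of t0, 357 (84.3 CPM), of t4, 371 (52.6 CPM), and of t6, 349 (30.8 CPM), were the 3 libraries rich in haemoglobin, and the part of red blood cells in these values was not tested.

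**Figure D3:**
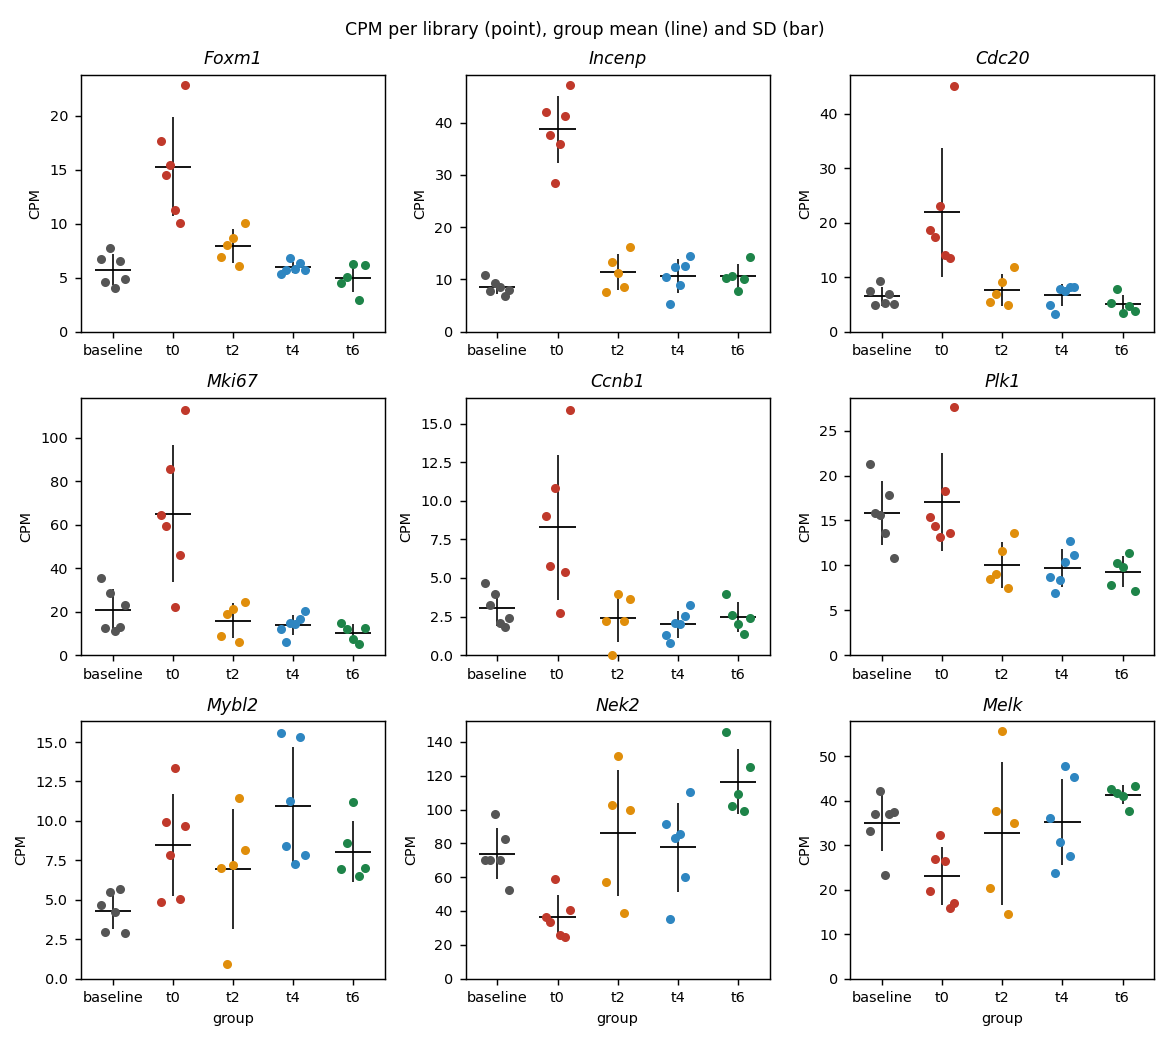
CPM of 9 genes in the 28 knockout libraries, with 1 point per library and the mean and SD of each group as a line and a bar. Foxm1, Incenp and Cdc20 show t0 libraries wholly above baseline, Plk1 lies in the baseline range in 5 of the 6 t0 libraries, Mybl2 lies above baseline in every t4 and t6 library, and Nek2 and Melk are lower at t0.

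The 4 mitotic kinases outside the checkpoint and passenger complexes split. Aurka, which matures centrosomes and builds spindle poles, was at 3.01 to 5.51 CPM (median 3.93) at baseline, 6.79 to 18.5 CPM (median 10.9) at t0 and 2 to 5.41 CPM (median 4.91) at t4. It held 0, 4.75, 6.79, 6.88 and 8.85 CPM in t2, with 339 at 0, and 2.8, 3.98, 4.05, 4.56 and 4.79 CPM in t6. All t0 libraries lay above baseline and above t4 and t6. Aurka rose at t0 (1.47 ± 0.51, adjusted p = 0.02), with an adjusted p of 0.053 without t0 375. Plk1, the Polo kinase that drives entry, spindle building and cytokinesis, was at 10.8 to 21.2 CPM (median 15.7) at baseline, 13.2 to 27.6 CPM (median 14.9) at t0 and 6.91 to 12.7 CPM (median 9.51) at t4. It held 7.46, 8.47, 8.99, 11.6 and 13.6 CPM in t2 and 7.17, 7.85, 9.81, 10.2 and 11.3 CPM in t6. The t0 libraries other than 375 lay inside the baseline range, and the later libraries lay in its lower part or below it. Plk1 had no call at t0 (0.11 ± 0.20, adjusted p = 0.69) and was lower than baseline at t2 (−0.66 ± 0.21, adjusted p = 0.03), t4 (−0.71 ± 0.20, adjusted p = 0.016) and t6 (−0.77 ± 0.21, adjusted p = 0.023). The t2 call was lost when any of 4 libraries was left out and the t6 call when any of 3 was.

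Nek2 and Melk were the members that fell at t0. Nek2, which separates centrosomes before mitosis and is also found at centrioles, was at 52.7 to 97.1 CPM (median 70.3) at baseline, 24.3 to 59.1 CPM (median 35) at t0 and 35.1 to 111 CPM (median 84.3) at t4. It held 39, 57.1, 99.9, 103 and 132 CPM in t2 and 99.3, 102, 109, 125 and 146 CPM in t6. All t0 libraries but 359 lay below the baseline range, and all t6 libraries lay above it. Nek2 fell 2.01-fold at t0 (−1.01 ± 0.26, adjusted p = 0.0024) and rose from t0 to t2 (1.23 ± 0.27, adjusted p = 9.4e-04), t4 (1.08 ± 0.26, adjusted p = 0.0018) and t6 (1.67 ± 0.27, adjusted p = 2.4e-05). Melk, a kinase raised in dividing and progenitor cells, was at 23.3 to 42.2 CPM (median 37) at baseline, 15.9 to 32.3 CPM (median 23) at t0 and 23.6 to 47.8 CPM (median 33.4) at t4. It held 14.6, 20.3, 35, 37.6 and 55.8 CPM in t2 and 37.8, 41.2, 41.8, 42.6 and 43.3 CPM in t6. Groups overlapped at t0, and all t6 libraries lay above t0. Melk fell at t0 (−0.61 ± 0.24, adjusted p = 0.037) and rose from t0 to t6 (0.84 ± 0.25, adjusted p = 0.0079). Scaling by library totals gave Melk −0.44 at t0 (adjusted p = 0.20), and a term for sex, inferred from the RNA, gave an adjusted p of 0.057. In the t0 library with the highest Nek2 and Melk, 359, the multiciliated markers summed to 2578 CPM, against 710.4 to 1187 in the rest of t0; the part of multiciliated cells was not tested.

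The chromosomal passenger complex, which corrects chromosome attachment and guides cytokinesis, rose in all 4 genes at t0 and fell in all 4 from t0 to t6. Incenp, its scaffold, had the smallest adjusted p of all members at t0. It was at 6.87 to 10.8 CPM (median 8.25) at baseline, 28.4 to 47.1 CPM (median 39.5) at t0 and 5.32 to 14.4 CPM (median 11.4) at t4. The libraries of t2 held 7.6, 8.57, 11.3, 13.3 and 16.1 CPM, and those of t6 7.81, 10.1, 10.3, 10.7 and 14.2 CPM. The t0 libraries stood clear of the rest with no overlap, and t0 375 did not stand apart. Incenp rose 4.53-fold (2.18 ± 0.21, adjusted p = 8.1e-09) and fell to t4 (−1.86 ± 0.21, adjusted p = 1.4e-07) and t6 (−1.87 ± 0.22, adjusted p = 5.1e-07). Aurkb, the kinase of the complex, was at 0.969 to 3.67 CPM (median 1.9) at baseline, 3.21 to 15.5 CPM (median 6.64) at t0 and 0.277 to 2.78 CPM (median 1.96) at t4. It held 0.705, 2.09, 3.3, 4.25 and 4.98 CPM in t2 and 0.215, 0.365, 1.44, 1.52 and 1.66 CPM in t6. The lowest t0 library overlapped baseline, and every t4 and t6 library lay below t0. Its rise was 1.83 ± 0.54, adjusted p = 0.0065, and its fall to t6 (−2.88 ± 0.60, adjusted p = 4.0e-04) was 7.35-fold. Birc5 (survivin), the subunit that docks on centromeres, was at 1.21 to 4.4 CPM (median 2.7) at baseline, 4.36 to 15.6 CPM (median 7.45) at t0 and 1.38 to 3.21 CPM (median 2.41) at t4. It held 1.08, 1.56, 2.92, 3.2 and 4.33 CPM in t2 and 1.2, 1.22, 1.96, 2.01 and 2.13 CPM in t6. The lowest t0 library of Birc5 lay inside the baseline range. Later groups lay wholly below t0, the highest t2 library only just. The changes were 1.68 ± 0.38, adjusted p = 7.4e-04 at t0 and −2.34 ± 0.42, adjusted p = 6.8e-05 from t0 to t6. Cdca8 (borealin) rose 4.98-fold (2.32 ± 0.58, adjusted p = 0.0018).

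At the spindle checkpoint, Bub1b and Ttk rose at t0 and Bub1 and Mad2l1 had no call. Ttk passed the filter on low counts only through the t0 libraries, and leaving out any of 14 libraries ended its call. Bub1b (BubR1), an inhibitor of Cdc20, was at 3.2 to 5.44 CPM (median 4.32) at baseline, 5.86 to 22.1 CPM (median 13.3) at t0 and 1.66 to 4.74 CPM (median 2.44) at t4. It held 1.45, 2.1, 2.32, 5.22 and 5.64 CPM in t2 and 1.76, 1.92, 2.74, 3.43 and 3.7 CPM in t6. The t0 libraries lay above those of every other group. Bub1b rose at t0 (1.54 ± 0.35, adjusted p = 7.9e-04) and fell by t2 (−1.93 ± 0.38, adjusted p = 2.8e-04). Bub1, the kinase that recruits checkpoint proteins to kinetochores, was at 0.425 to 2.28 CPM (median 1.07) at baseline, 1.5 to 5.77 CPM (median 2.74) at t0 and 0.0691 to 1.29 CPM (median 0.592) at t4. It held 0, 0.371, 0.57, 0.997 and 1.37 CPM in t2 and 0.456, 0.581, 0.615, 0.646 and 1.15 CPM in t6. At t0 it overlapped baseline (1.40 ± 0.61, adjusted p = 0.061), with DESeq2 giving an adjusted p of 0.033. It fell from t0 to t2 (−2.26 ± 0.67, adjusted p = 0.012) and to t6 (−2.19 ± 0.67, adjusted p = 0.011). The kinase gene Ttk (Mps1), low throughout, went from 0.73 ± 0.424 to 1.99 ± 1.11 CPM (1.44 ± 0.59, adjusted p = 0.046), and Mad2l1, whose product binds Cdc20, from 4.6 ± 2.01 to 6.46 ± 2.17 CPM (0.49 ± 0.29, adjusted p = 0.17).

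Of the 4 genes of anaphase, 3 rose and Pttg1 did not. Cdc20 was at 4.97 to 9.21 CPM (median 6.05) at baseline, 13.5 to 45.1 CPM (median 17.9) at t0 and 3.32 to 8.24 CPM (median 7.63) at t4. It held 4.86, 5.43, 6.99, 9.15 and 11.9 CPM in t2 and 3.51, 3.87, 4.75, 5.31 and 7.8 CPM in t6. All t0 libraries lay above all others, with 375 far above the rest of t0. The rise was 3.38-fold (1.76 ± 0.30, adjusted p = 2.8e-05), and the fall to t6 was −2.12 ± 0.32, adjusted p = 9.6e-06. Espl1 was at 1.16 to 2.88 CPM (median 1.64) at baseline, 3.74 to 18.5 CPM (median 9.85) at t0 and 1.96 to 3.06 CPM (median 2.29) at t4. It held 1.41, 2.08, 4.56, 5.02 and 6.08 CPM in t2 and 1.37, 1.7, 1.78, 2.08 and 2.52 CPM in t6. Every t0 library lay above baseline, t4 and t6, whereas 3 of the 5 t2 libraries reached the t0 range. Espl1 rose 5.24-fold at t0 (2.39 ± 0.38, adjusted p = 1.0e-05) and was above baseline at t2 (1.05 ± 0.38, adjusted p = 0.049), a call that 22 of the 28 libraries each end when left out. Ube2c, the ubiquitin-conjugating enzyme of the APC/C, had the largest fold change of the 50 at t0, 6.29-fold (2.65 ± 0.59, adjusted p = 6.9e-04). It also passed at t4 (1.97 ± 0.58, adjusted p = 0.019), where t4 371 held 46.5 CPM and the other 5 libraries 4.15 to 6.61, and without t4 371 the adjusted p was 0.20. Within t6 it was highest in 349, with 441 counts against 72 to 147. Both t4 371 and t6 349 were rich in haemoglobin. The haemoglobin-rich t0 357 had 426 counts, and the other t0 libraries had 204, 236, 255, 719 and 1122. These are counts before scaling, from libraries of unequal totals. The part of red blood cells in Ube2c was not tested. Pttg1 (securin), the inhibitor of separase, fell into separate levels at baseline, with 1.51, 2.84 and 4.64 CPM in 3 libraries and 20.3, 25.8 and 29.0 in the other 3. It was at 12.1 to 22.7 CPM (median 15.2) at t0, and its change was 0.20 ± 0.54, adjusted p = 0.78. Low libraries also occurred at t2, with 38 counts in t2 358 and 111 in t2 360. The libraries t2 334, t2 339 and t2 347 had 360, 425 and 631 counts.

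The genes of chromosome structure all rose, 5 of 5. Mki67, which coats mitotic chromosomes and is the usual stain for cycling cells, was at 11.2 to 35.6 CPM (median 17.9) at baseline, 22 to 113 CPM (median 62) at t0 and 6.08 to 20.2 CPM (median 14.5) at t4. It held 6.16, 8.97, 19.1, 21.1 and 24.3 CPM in t2 and 5.2, 7.29, 12, 12.5 and 14.6 CPM in t6. Only the lowest t0 library lay inside the baseline range, and all t4 and t6 libraries lay below t0. Mki67 rose 3.17-fold (1.66 ± 0.38, adjusted p = 8.2e-04) and fell 6.33-fold from t0 to t6 (−2.66 ± 0.42, adjusted p = 1.8e-05). Top2a, the topoisomerase that untangles sister chromatids, was at 7.3 to 23.9 CPM (median 13) at baseline, 17.1 to 61.8 CPM (median 31.7) at t0 and 6.5 to 13.4 CPM (median 9.41) at t4. It held 7.72, 9.46, 16.3, 18.9 and 19.3 CPM in t2 and 5.17, 5.63, 8.54, 13.1 and 13.8 CPM in t6. Baseline and t0 overlapped, and t4 and t6 lay below t0. The changes were 1.21 ± 0.34, adjusted p = 0.0047 at t0 and −1.89 ± 0.37, adjusted p = 1.9e-04 from t0 to t6. The condensin genes Smc2, Ncaph and Ncapg changed by 0.85 ± 0.30, adjusted p = 0.02, 1.32 ± 0.31, adjusted p = 9.5e-04 and 1.66 ± 0.63, adjusted p = 0.032.

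Among the kinetochore and centromere genes 3 of 4 rose. Cenpa, the histone that marks centromeres, rose from 1.4 ± 0.799 to 6.48 ± 3.44 CPM (2.21 ± 0.54, adjusted p = 0.0015), with no overlap. The kinetochore motor gene Cenpe (1.58 ± 0.53, adjusted p = 0.016) and the large kinetochore protein gene Cenpf (1.41 ± 0.36, adjusted p = 0.0021) also rose, and the microtubule-binding Ndc80 had no call (1.04 ± 0.58, adjusted p = 0.15).

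Of 9 genes for spindle motors and assembly 5 rose: Tpx2, the activator of Aurka (1.78 ± 0.53, adjusted p = 0.0072), the spindle protein gene Hmmr (1.98 ± 0.56, adjusted p = 0.0054) and the kinesins Kif18b (1.74 ± 0.59, adjusted p = 0.017), Kif2c (1.39 ± 0.56, adjusted p = 0.045) and Kif4 (1.39 ± 0.39, adjusted p = 0.0044). Tpx2 and Hmmr lay wholly above baseline. The kinesin genes Kif11 (0.46 ± 0.40, adjusted p = 0.36) and Kif15 (1.31 ± 0.56, adjusted p = 0.058) had no call, nor did the spindle-associated Nusap1 (1.29 ± 0.63, adjusted p = 0.093) and Dlgap5 (1.24 ± 0.56, adjusted p = 0.07).

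The cytokinesis genes, whose products build the midzone and the contractile ring, rose in 5 of 7. The partners of the centralspindlin complex rose together, Racgap1 3.61-fold (1.85 ± 0.33, adjusted p = 5.9e-05) and Kif23 3.14-fold (1.65 ± 0.29, adjusted p = 3.6e-05), each with all t0 libraries above baseline. Ect2, the exchange factor that centralspindlin recruits, had no call (0.40 ± 0.37, adjusted p = 0.39). Anln, the contractile-ring scaffold anillin (1.62 ± 0.43, adjusted p = 0.0028), and the kinesin gene Kif20a (0.90 ± 0.33, adjusted p = 0.026) rose, and its relative Kif20b had no call (0.87 ± 0.62, adjusted p = 0.26). Prc1, the bundler of midzone microtubules, was at 5.38 to 13.3 CPM (median 8.94) at baseline, 8.82 to 34.5 CPM (median 16.1) at t0 and 2 to 7.42 CPM (median 5.68) at t4. It held 5.62, 5.86, 8.15, 9.07 and 14.2 CPM in t2 and 3.65, 4.44, 4.52, 6 and 6.34 CPM in t6. Baseline and t0 overlapped, and t4 and t6 lay below t0. Its change at t0 was 1.01 ± 0.32, adjusted p = 0.011, with an adjusted p of 0.056 without t0 375. At t6 against baseline Prc1 was at −0.87 ± 0.34, adjusted p = 0.11.

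After exposure ended, most of the genes came down from t0. At t2 against t0, 29 of the 50 fell and 1, Nek2, rose, against 14.2% of all genes tested that fell and 15.7% that rose (29.9% in all). The median log2 difference was −1.27. Without t0 375 there were 19 calls, 18 of them falls, and without t2 339 there were 36, 35 of them falls. The shares of all genes called in those refits are not given here, so the changes in count cannot be ascribed to the mitosis genes. At t4 against t0, 37 fell and 2 rose, Nek2 and Melk, against 17.4% and 15.9% of all genes (33.3% in all), with a median of −1.65. At t6 against t0, 40 fell and the same 2 genes rose, against 20.5% and 18.2% of all genes (38.7% in all), with a median of −1.76. All libraries lay below all t0 libraries for 13 genes at t2 (6.9% of all genes), 26 at t4 (8.86%) and 33 at t6 (12.1%). At t6, Nek2 and Melk lay wholly above t0, against 10.9% of all genes. These comparisons share the t0 libraries with one another and with the comparison of t0 and baseline, so t0 375 enters all of them. Over the 5 groups together, an F test called 40 of the 50, against 56.8% of all genes.

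**Figure D4:**
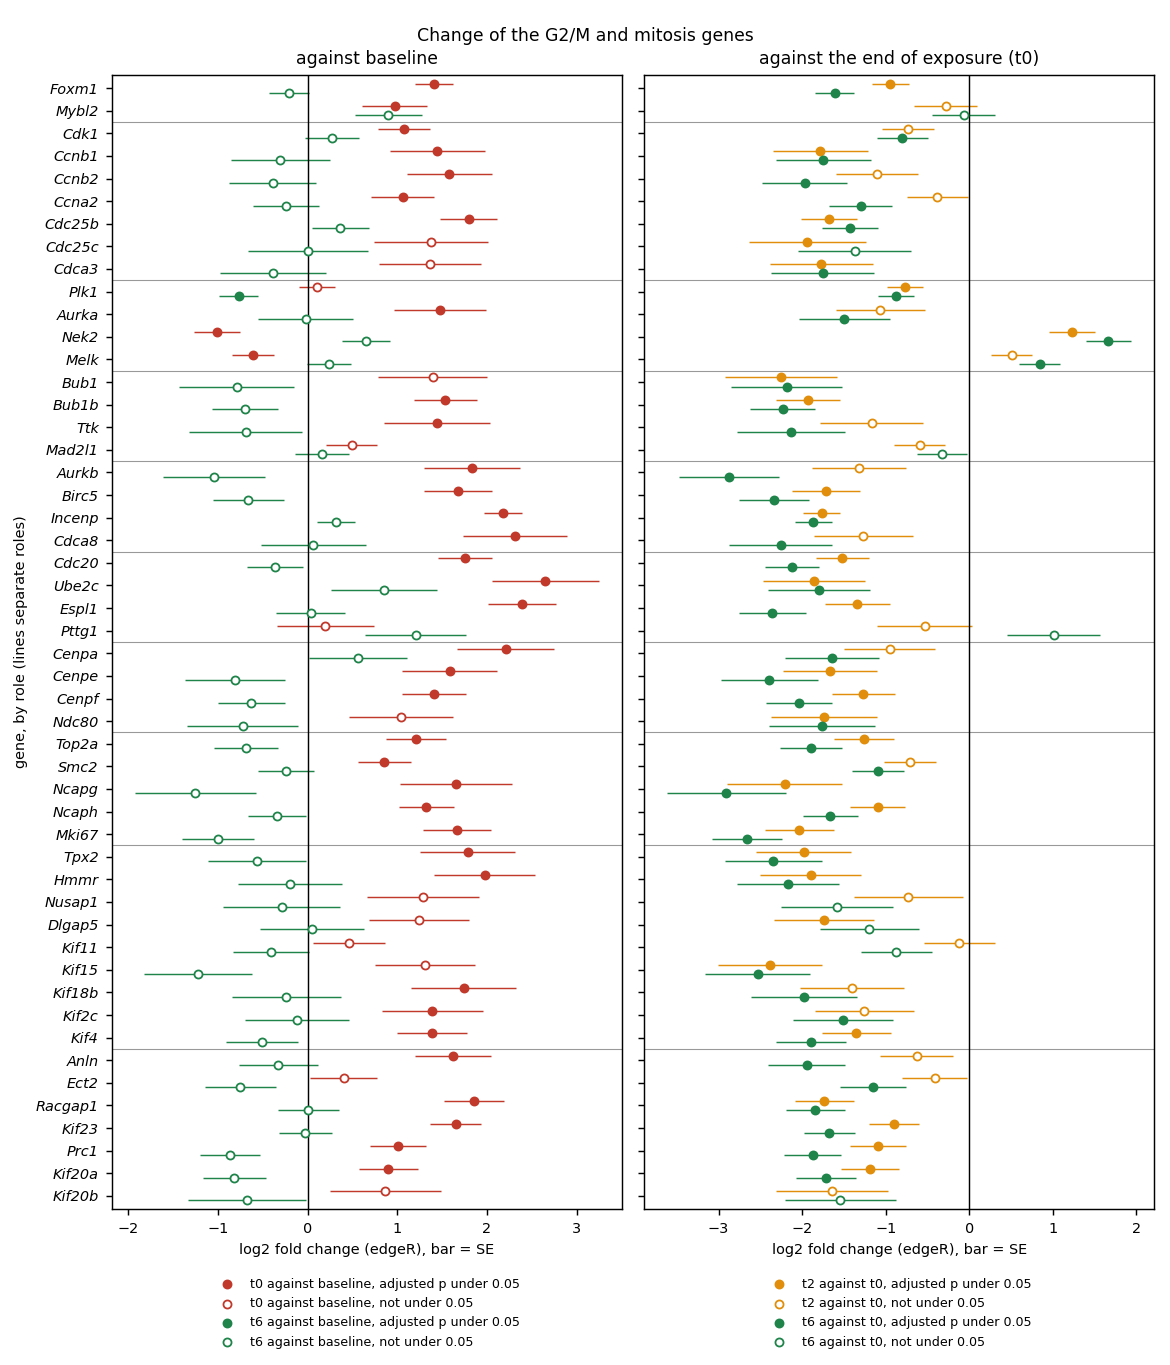
Log2 fold changes of the 50 genes from edgeR, with standard errors derived from its F statistic. Changes against baseline are on the left (t0 red, t6 green) and against t0 on the right (t2 orange, t6 green). Filled points have an adjusted p under 0.05 and lines separate roles. Most red points lie right of 0, most green points on the left panel lie near or below 0, and Nek2 and Melk point the opposite way.

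Against baseline, few of the genes had a call after t0. At t2 there were 2 (19.9% of all genes tested), Espl1 above baseline and Plk1 below it, where 11.2% of all genes rose and 8.73% fell. Without t2 339 there were 4, 3 above and 1 below, in a fit whose share of all genes called is not given here. At t4 there were 3 (19.6%), with Mybl2 and Ube2c above and Plk1 below, where 10% of all genes rose and 9.56% fell. At t6 there was 1 (8.82%), Plk1 below baseline, where 4.53% of all genes rose and 4.29% fell. The median log2 differences from baseline were 0.12, −0.17 and −0.31, beside 0.02, 0.01 and −0.01 over all genes. Mybl2 lay wholly above baseline at t4, where 5.75% of all genes did, and Mybl2 and Nek2 did at t6, where 4.66% did. A missing call does not show that a gene was back at its baseline level: at t6 Mki67 stood at −1.0 ± 0.40, adjusted p = 0.12 and Kif15 at −1.22 ± 0.60, adjusted p = 0.22.

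Other genes of the pathway, taken from lists that exclude the 50, were read in the same fit. Of 56 other spindle, kinetochore and cytokinesis genes tested (60 listed), 28 rose at t0 (50%, beside 23.3% of all genes). The condensin gene Ncapd3 was the 1 that fell (1.79%, beside 22.3%). The median was 1.19, and without t0 375, 19 of 55 rose. The share of all genes that rose in that fit is not given here. Nor is it given which of the 56 passed the filter on low counts only through t0. Psrc1, a spindle protein gene, went from 2.30 ± 0.73 to 25.4 ± 3.19 CPM (3.47 ± 0.43, adjusted p = 4.7e-07), and Gtse1, which acts in G2, from 4.58 ± 1.21 to 22.6 ± 4.93 CPM (2.30 ± 0.24, adjusted p = 2.9e-08). Against t0, 21 of the 56 fell at t2, 36 at t4 and 39 at t6, beside 14.2%, 17.4% and 20.5% of all genes. Of 15 APC/C subunits and regulators, 3 rose at t0 (20%; Fzr1, Anapc2 and Ube2s) and 5 fell (33.3%; Cdc16, Cdc27, Anapc1, Anapc4 and Anapc10), beside 23.3% and 22.3% of all genes, with a median of −0.06. This split turned on the scaling: by library totals, which moved the median of all genes from 0.02 to 0.19, 4 rose, the calls of lower genes were lost and the median was 0.12. The coactivator gene Fzr1 went from 34.4 ± 4.57 to 51.4 ± 9.53 CPM, and the subunit gene Cdc16 from 41.4 ± 6.99 to 26.8 ± 4.71 CPM. A list of 19 genes held CDK inhibitors, checkpoint kinases and DREAM or MuvB subunits. Of these 7 rose (36.8%) and 4 fell (21.1%), beside 23.3% and 22.3% of all genes. Since MuvB also acts with B-Myb and Foxm1, the counts are not those of restraint alone. Cdkn1a (p21), the CDK inhibitor induced by p53, was high at t0 too, at 474.2 ± 181 CPM against 64.5 ± 6.35 at baseline, and its t2, t4 and t6 means were 132.7 ± 19.2, 119.6 ± 43.6 and 75.9 ± 16.7 CPM. The CDK inhibitor gene Cdkn1c fell (−1.53 ± 0.24, adjusted p = 8.0e-06), from 25.6 ± 4.23 to 8.88 ± 2.25 CPM.

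Levels could be compared between genes only in the wild-type libraries, where the authors' TPM values are per transcript length. The highest means over the 6 libraries were those of Pttg1 (21.6 ± 10.8 TPM), Nek2 (17.9 ± 8.91), Cdc25b (11.9 ± 9.21), Cdk1 (10.8 ± 7.02), Plk1 (8.00 ± 2.88) and Melk (7.48 ± 3.09). The lowest were those of Cdc25c (0.36 ± 0.44) and Ttk (0.243 ± 0.343). Neighbours in this order differed by less than their SD. Pttg1 ranged from 3.29 to 36.3 TPM and Nek2 from 6.49 to 32.9. The summed TPM of the 50 genes ran from 89.96 to 341.2, highest in wild-type animal 289. Both kinds of table were processed separately, so genotypes were not compared.

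**Figure D5:**
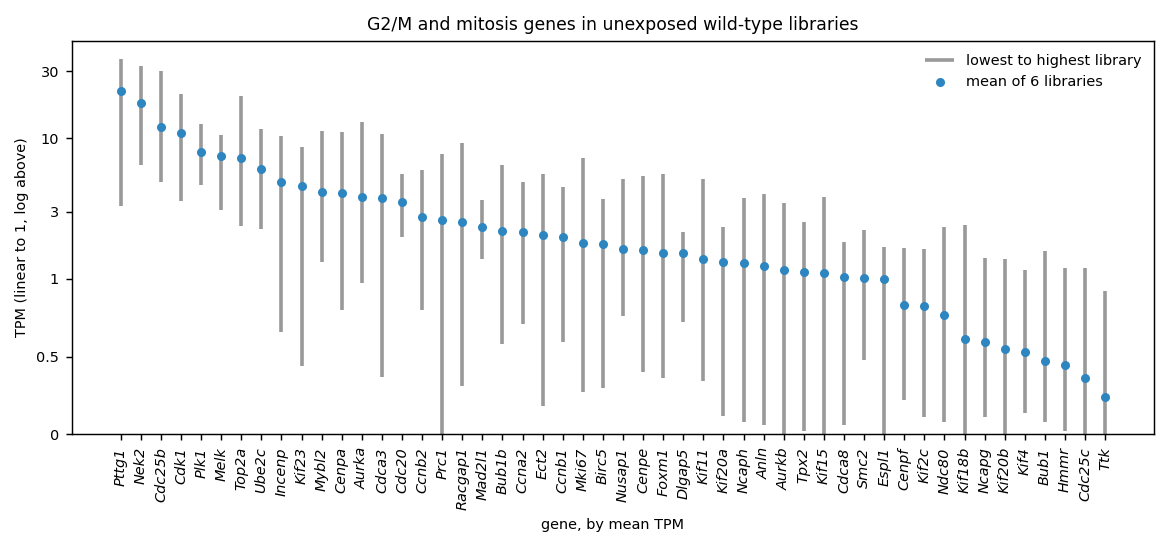
TPM of the 50 genes in the 6 unexposed wild-type libraries, ordered by mean; points are means and bars run from the lowest to the highest library, on an axis that is linear up to 1 TPM and logarithmic above. Pttg1, Nek2 and Cdc25b lead, and the bars of neighbouring genes overlap widely.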

How the data were processed

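RNA of knockout tracheal brushings was sequenced as poly-A libraries on an Ion Proton instrument, with a minimum RNA integrity number of 7, per the labels' protocols. The knockout table was made by the authors with STAR 2.4.1d, Bowtie2 2.1.0 and Partek on mm10, per the submitters' processing notes. Its name says RPKM, but the deposited values are estimated counts (76.3% of values above 0 are whole within 0.01, and totals differ between libraries), so they were rounded and tested as counts. The wild-type files hold expected counts and TPM made by the authors with RSEM 1.3.1 and STAR 2.7.0f, per the submitters' processing notes. Whether counting used strand is not given in the sources used here, so genes that overlap others cannot be separated from them.

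Groups came from the sample labels. Genes that reached 1 CPM in 5 or more of the 28 libraries were kept (14847), scaled by TMM and fitted with 1 mean per group in edgeR 4.0.16 (R 4.3.3, limma 3.58.1; quasi-likelihood, robust, two-sided), with Benjamini-Hochberg adjustment and calls under 0.05; the procedure was tested on simulated data. Library totals of 15.6 M to 37.6 M counts limit the precision of genes near 1 CPM. Tables and plots used Python 3.11.15, numpy 2.4.6, pandas 2.3.3, scipy 1.17.1 and matplotlib 3.10.9. Alternatives were DESeq2 1.42.0, 2 other scalings, haemoglobin genes and Rn45s left out, other filters, a term for sex, fits of only the groups compared, and libraries left out. Sex was inferred for each library from Xist against Ddx3y. By this measure baseline held 2 males and 4 females, t0 and t4 3 of each, and t2 and t6 2 males and 3 females.

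The members, the lists and the rules were chosen with earlier results of these data known. Values by library (every value in groups of 5; lowest, median and highest in groups of 6) are given for 19 genes: 13 chosen for their role, the 2 members with the smallest adjusted p of each comparison, and members called against the direction of most. Cdc25b, Ube2c, Pttg1, Cenpa and others given by single values were singled out after their values were seen. Of each other list, the genes with the smallest adjusted p and the opposite call with the smallest p are given. Settings for the other lists were added after seeing the data.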

Additional observations from a re-analysis of the deposited data

Results flagged for a closer look

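Cdc20 in t0 375 stood at 45.1 CPM, far above the next t0 library (23.0 CPM), and Plk1 in the same library stood at 27.6 CPM against 18.3 CPM in the next. Aurka was lowest in t4 336, at 2.00 CPM with the next library at 4.66. Bub1 was highest in t6 368, at 1.15 CPM with the next at 0.646. These 4 came from 95 groups of libraries examined for a value far from the others, of which chance alone picks out about 1 in 20.

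The change from baseline differed from that at t0 for 30 members at t2, 39 at t4 and 42 at t6 by edgeR's quasi-likelihood test. Over all genes tested the shares were 29.9%, 33.3% and 38.7%. Baseline cancels in such a difference, so these are the comparisons with t0 already given above and not a further result. All 3 counts rest on the same t0 libraries.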

How the results depend on the processing

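The number of the 50 genes called at t0 against baseline was 37, and it stayed within 1.5 times of that under every alternative but the loss of t0 375, with a range of 24 to 42 when single libraries were left out; DESeq2 called 41. The range was 19 to 36 at t2 against t0, 32 to 43 at t4 against t0, 34 to 46 at t6 against t0 and 34 to 45 in the F test. Fitting only t2 and t0 gave 16 calls in place of 30. Against baseline the counts were small, and single libraries moved the t2 count between 0 and 4, the t4 count between 2 and 3 and the t6 count between 0 and 2. At t2 the count of 2 was 1 by library totals, without haemoglobin genes and Rn45s, without a filter on low counts and with a term for sex, and 0 when only the groups compared were fitted. At t4 that fit gave 5 in place of 3. At t6 the count of 1 was 0 by library totals and without t0 357, t2 339, t4 371, t6 349 and t6 365, and 4 when only the groups compared were fitted. For these the cause was not tested, and the shares of all genes called under the alternatives are not given here. Library totals raised the share of called genes that were higher at t0 from 51.1% to 69.3% over all genes, with 38 members higher and 1 lower, and the ratio of summed CPM from 1.98 to 2.25. Among the named genes at t0 against baseline and t6 against t0, 35 values lost their call, 7 gained one and 1360, uncalled ones included, stayed on their side of the threshold, and no direction turned. The F test with only the groups compared was not run, since it uses all 5 groups. No paired analysis was possible because the libraries come from separate mice with no shared replicate numbers. Genes near 1 CPM, such as Ttk and Cdc25c, are limited by depth.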
